A study of Mus musculus with 4 samples.

Results

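A set of 35 genes of B cell identity and B cell receptor signalling was followed through 4 arrays of 4T1Ch9 tumors. A gene was taken as measured where a probe set carried its symbol alone in the platform annotation, and a gene with several such probe sets was read from its brightest. This gave 33 of the 35 genes, out of 17097 measured genes in all, and Fcrl5 and Fcmr were not used here. Compared within each label, the B cell genes were far apart: the array labelled MEKi 1 read above the array labelled MEKi 2 for all 33 genes, and the array labelled vehicle 2 read above the array labelled vehicle 1 for 32 of them. Of all 17097 genes, 8041 and 8880 read in these directions. No difference between MEKi and vehicle passed the test by label.

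The tumors came from 4T1Ch9, a cherry-tagged triple-negative breast cancer line of Balb/c origin that was injected into the mammary fat pad of mice and left to establish for 10 days. All mice were then dosed for 7 days, either with vehicle or with trametinib at 1 mg/kg, an inhibitor of the kinases MEK1 and MEK2 (MEKi). Total RNA of whole tumor tissue was hybridised to MG-430PM arrays from Affymetrix, with 2 arrays per group. The line is a single tumor model. Whether arrays of 1 group stand for different animals is not stated in the labels or the methods, so that p-values rest on array-to-array spread alone, and this spread may be technical.

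B cells recognise antigen through membrane immunoglobulin, which signals through the paired chains CD79A and CD79B. Src family kinases phosphorylate these chains, SYK binds them, and the adaptor BLNK brings BTK and PLCG2 together so that calcium and Ras/MAPK signalling follow. Co-receptors on the surface raise this signal, and lectin-like receptors such as CD22 dampen it. The transcription factors EBF1 and PAX5 set up and hold B cell identity. In breast tumors B cells are found as scattered infiltrating cells and in lymphoid aggregates beside T cells, and they are also the main cells of lymph node follicles.

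Values are log2 expression after RMA, so that each unit is a factor of 2. Precision is limited by the number of arrays. The 25th percentile of the arrays was between 3.85 and 3.88, and a reading close to it lies near the floor, where a difference can be understated. The arrays did not resemble each other by label. Pearson's r, taken across probe sets that are not independent of each other, was 0.992 for MEKi 1 with vehicle 2 and 0.978 for MEKi 2 with vehicle 1, compared to 0.927 between both MEKi arrays and 0.959 between both vehicle arrays. No label was changed and no array was regrouped. Whether labels were exchanged between arrays was not tested, the correlations leave unsettled which of the tumors received trametinib, and every value by label below rests on the labels as deposited. Each array is named by its label, and the differences between single arrays are descriptions with no test. Tumor epithelial markers were present, with Krt8, a keratin of simple epithelia, at 10.54, 12.11, 12.92 and 11.75 in MEKi 1, MEKi 2, vehicle 1 and vehicle 2. Krt19, another keratin, was at 8.91, 4.52, 9.36 and 9.42 in the same order, so the array labelled MEKi 2 read low for it. The reference gene Actb, a cytoskeletal actin, lay between 13.54 and 13.64.

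Promoter windows from RefSeq (build GRCm38.p6, 250 bases before to 50 after the start of the gene) were found for 30 of the 35 genes. They are described first, and their part in the readings of the arrays was not tested. Windows were searched on both strands for letters bound by B cell transcription factors. The octamer ATGCAAAT, which is bound by OCT-2 with its co-activator OBF-1, was present for 2 of 30 genes (6.67%), Blnk and Vpreb3, compared to 1.97% of 27025 genes. The EBF motif, TCCC and GGGA with any 2 bases between them, was present for 1 of 30 genes (3.33%), Cd22, compared to 1.06%. The letters GAGGAAGT, of the kind bound by PU.1 and Spi-B, were present for 3 of 30 genes (10%), Cd37, Cd72 and Fcrl1, compared to 3.69%. A match is a description of the letters and not of a bound site. One window or more is printed for each motif, 5′ to 3′ along the strand of the gene, with the motif in capitals. The octamer in Blnk (chr19:40994172-40994471, minus strand) and Vpreb3 (chr10:75948050-75948349, plus strand) reads as its reverse complement and begins at -130 and -45 from the start. The EBF letters in Cd22 (chr7:30878979-30879278, minus strand) begin at -49, and the reverse complement of the PU.1 and Spi-B letters in Fcrl1 (chr3:87376137-87376436, plus strand) begins at -15.
Blnk: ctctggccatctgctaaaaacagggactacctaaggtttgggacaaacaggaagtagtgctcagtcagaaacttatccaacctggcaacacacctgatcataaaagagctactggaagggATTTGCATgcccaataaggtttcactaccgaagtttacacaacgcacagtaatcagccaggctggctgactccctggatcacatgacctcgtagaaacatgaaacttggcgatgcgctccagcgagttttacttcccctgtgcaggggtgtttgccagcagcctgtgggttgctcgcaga
Vpreb3: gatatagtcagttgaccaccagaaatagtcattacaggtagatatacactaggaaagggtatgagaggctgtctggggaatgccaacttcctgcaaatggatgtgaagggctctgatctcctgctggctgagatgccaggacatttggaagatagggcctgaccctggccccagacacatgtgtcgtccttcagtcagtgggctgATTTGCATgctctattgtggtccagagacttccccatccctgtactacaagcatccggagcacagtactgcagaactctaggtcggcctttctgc
Cd22: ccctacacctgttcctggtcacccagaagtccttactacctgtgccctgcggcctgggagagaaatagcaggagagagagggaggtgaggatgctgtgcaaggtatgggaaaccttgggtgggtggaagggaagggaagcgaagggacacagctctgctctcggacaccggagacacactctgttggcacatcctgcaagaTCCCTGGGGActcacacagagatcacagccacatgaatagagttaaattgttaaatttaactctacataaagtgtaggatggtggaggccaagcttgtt
Fcrl1: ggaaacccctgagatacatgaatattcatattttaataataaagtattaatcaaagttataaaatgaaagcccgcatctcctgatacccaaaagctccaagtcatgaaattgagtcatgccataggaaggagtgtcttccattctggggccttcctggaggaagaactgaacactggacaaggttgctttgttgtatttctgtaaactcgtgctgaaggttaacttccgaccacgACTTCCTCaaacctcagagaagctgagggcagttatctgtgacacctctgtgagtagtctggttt

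The signalling chains of the B cell receptor were high in 1 array of each label and near the floor in the other. Cd79b, which encodes one of the paired chains, was at 12.36 and 4.82 in MEKi 1 and MEKi 2 and at 5.10 and 11.97 in vehicle 1 and vehicle 2. Cd79a, its partner, was at 8.91, 4.17, 4.19 and 8.62 in the same order, which is kept for the values below. Both chains therefore read low in MEKi 2 and vehicle 1, and the groups overlapped. Vpreb3, which encodes a VpreB family protein of the B lineage and has the octamer in its window, was at 8.58, 4.30, 4.34 and 7.94. Because the RNA is from whole tumors, fewer B cells and less RNA per B cell cannot be told apart.

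Among the inhibitory receptors, Cd22 and Siglecg encode lectins that bind sialic acid and recruit phosphatases to the receptor. Cd22, whose window holds the EBF letters, was at 12.68, 7.81, 8.82 and 12.12. Siglecg was at 9.84, 4.28, 4.51 and 9.14. Both had the same order of arrays, with MEKi 1 highest and MEKi 2 lowest. Cd72, a C-type lectin with an inhibitory motif, had a narrower spread, at 10.73, 8.53, 9.22 and 10.50.

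Ms4a1, which encodes the surface protein CD20, had the widest spread of the 33 genes. It was at 12.21, 3.97, 4.15 and 11.61, and it ranked 3 of 17097 genes both by MEKi 1 over MEKi 2 and by vehicle 2 over vehicle 1. Cr2 encodes the complement receptor CD21 and was at 9.35, 4.18, 4.05 and 9.51. Here vehicle 2 was the highest array, by 0.16 over MEKi 1. The tetraspanin gene Cd37 was at 10.60, 4.99, 6.39 and 10.38. Cd55, the complement decay-accelerating factor of many cell types, was at 8.84, 4.60, 5.52 and 8.45. For both of these genes MEKi 2 read below vehicle 1. Cd24a, a surface glycoprotein of B cells, other immature cells and epithelial tumors, stayed well above the floor in every array, at 12.36, 11.01, 11.05 and 12.41.

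The Fc receptor and Fc receptor-like genes read high in MEKi 1 and vehicle 2 and near the floor in the other arrays, with small differences among the high and among the low readings. Fcer2a, the low-affinity IgE receptor CD23, was at 9.15, 3.89, 3.82 and 9.48. Fcrl1, a surface protein with activating motifs whose window was printed above, was at 10.09, 4.32, 4.31 and 10.14. Fcrla, an intracellular protein that binds immunoglobulin, was at 9.75, 4.17, 4.43 and 9.27. The low readings of all 3 genes lay near the floor, so their differences may be understated. In the RP105 complex, a Toll-like receptor relative of B cells and myeloid cells, Cd180 was at 6.83 in MEKi 1, 4.90 in vehicle 1 and 5.74 in vehicle 2, and MEKi 2 read 0.11 above vehicle 1. Its partner Ly86, which macrophages also express, was at 11.61, 10.79, 11.59 and 11.45 and was the 1 gene of the 33 with vehicle 2 below vehicle 1.

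The kinases, adaptors and effectors downstream of the receptor were more varied. Blk, a Src family kinase found mainly in B cells, was at 9.70, 4.14, 3.64 and 9.10. Blnk, the adaptor, was at 12.23, 8.10, 8.36 and 12.02, and Bank1, a scaffold protein, was at 11.84, 8.61, 7.54 and 11.42. These genes kept a gap of more than 3 log2 units within each label. The Tec family kinase Btk, which myeloid cells also express, was at 10.82, 8.23, 8.81 and 10.44. Syk, used by many leukocytes, was at 6.86, 4.51, 4.74 and 5.44, and Plcg2, the phospholipase, was at 10.61, 10.07, 10.26 and 10.62. Syk was thus highest in MEKi 1 and Plcg2 lay in a range of 0.55 over all 4 arrays. Pik3ap1, which links receptors to PI3K, was at 10.73, 8.98, 9.78 and 10.61. Dock8, an exchange factor for Cdc42, was at 9.57, 6.73, 7.62 and 9.25. Both genes read lowest in MEKi 2. Swap70, a Rac-binding protein, was at 11.11, 10.07, 9.51 and 10.58. Ralgps2, an exchange factor for Ral, was at 10.44, 8.67, 7.06 and 9.58. Both of these, and Bank1, read lowest in vehicle 1.

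The transcription factor genes held some of the widest and the narrowest spreads. Pou2af1, which encodes OBF-1, was at 12.02, 4.51, 4.41 and 11.72, and Pou2f2, which encodes OCT-2, was at 7.57, 4.53, 3.96 and 7.11. Spib, an ETS factor of B cells and plasmacytoid dendritic cells, was at 11.09, 4.15, 4.73 and 10.55. Each of these read high in MEKi 1 and vehicle 2. Bcl11a, a zinc finger factor needed for early lymphoid cells, was at 10.15, 4.40, 4.82 and 9.25. Ikzf3, which encodes Aiolos, was at 7.21, 4.72, 4.42 and 6.24. Ebf1, also active in stromal and fat cells, was at 8.66, 4.68, 6.30 and 8.17, so that vehicle 1 kept a reading 1.62 above MEKi 2. Pax5, the commitment factor of the B lineage, was at 4.72, 4.26, 4.10 and 4.38. Its probe set read below the array median in all 4 arrays, so its signal was low over background throughout.

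**Figure D1:**
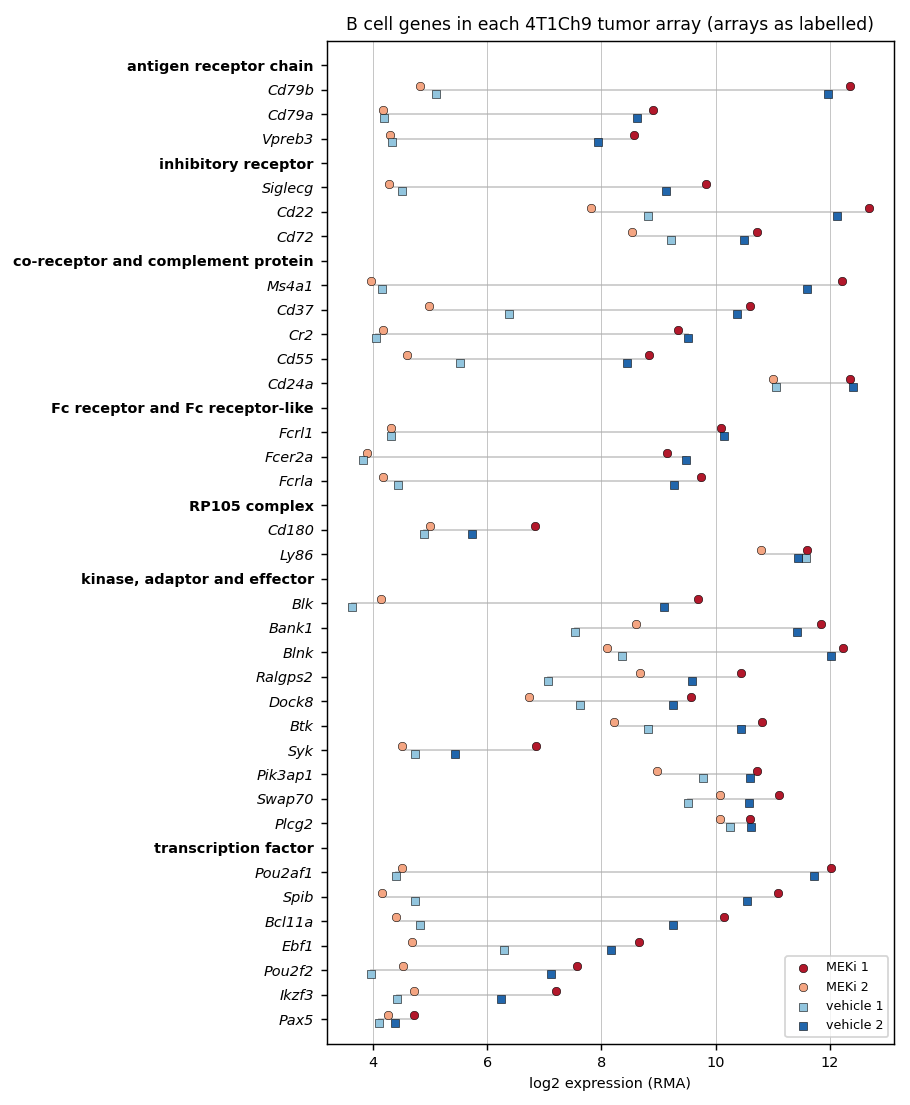
Log2 expression (RMA, horizontal axis) of 33 B cell genes, ordered by role, with 1 point per array. Circles mark MEKi arrays and squares vehicle arrays, as labelled, drawn slightly above and below the line that spans the range of each gene. Ms4a1 runs from 3.97 to 12.21, with MEKi 2 and vehicle 1 at the low end, while Pax5 and Plcg2 hardly spread.

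MEKi 1 read above MEKi 2 by more than 1.5-fold for 31 of the 33 genes, Plcg2 and Pax5 being the exceptions, and below it by more than 1.5-fold for 0. Over all 17097 genes, 16.1% were higher by more than 1.5-fold in this pair and 17.9% lower. Vehicle 2 read above vehicle 1 by more than 1.5-fold for 30 genes and below it by that much for 0, compared to 12.3% and 12.7% of all genes. The median difference over the 33 genes was 4.14 for MEKi 1 over MEKi 2 and 3.30 for vehicle 2 over vehicle 1, beside -0.04 and 0.02 over all genes. Of the 100 genes with the largest excess of MEKi 1 over MEKi 2, 14 were B cell genes of the set, and 16 were among the 100 with the largest excess of vehicle 2 over vehicle 1.

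These pairs share no array, and the sizes of the gaps ran together gene by gene, with Pearson's r of 0.949 over the 33 genes and 0.799 over all 17097. These correlations are across genes, which share their arrays and are not replicates, and are descriptions. Genes expressed mainly in the B lineage had a wider median gap than those also used by other cells, though the 2 kinds overlapped. For the 14 measured genes of the first kind, such as Ms4a1 and Cd79b, the median gaps were 5.41 and 5.15. For the other 19, such as Btk and Ly86, they were 2.50 and 1.64. Against this order, Pax5 of the first kind had gaps of 0.46 and 0.28. Among the other 19, Spib had gaps of 6.94 and 5.83 and Bcl11a gaps of 5.75 and 4.44. Where a gene had several probe sets, the further ones read in the same direction: 16 genes had 23 further probe sets, and all 23 were higher in MEKi 1 than in MEKi 2 and in vehicle 2 than in vehicle 1.

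**Figure D2:**
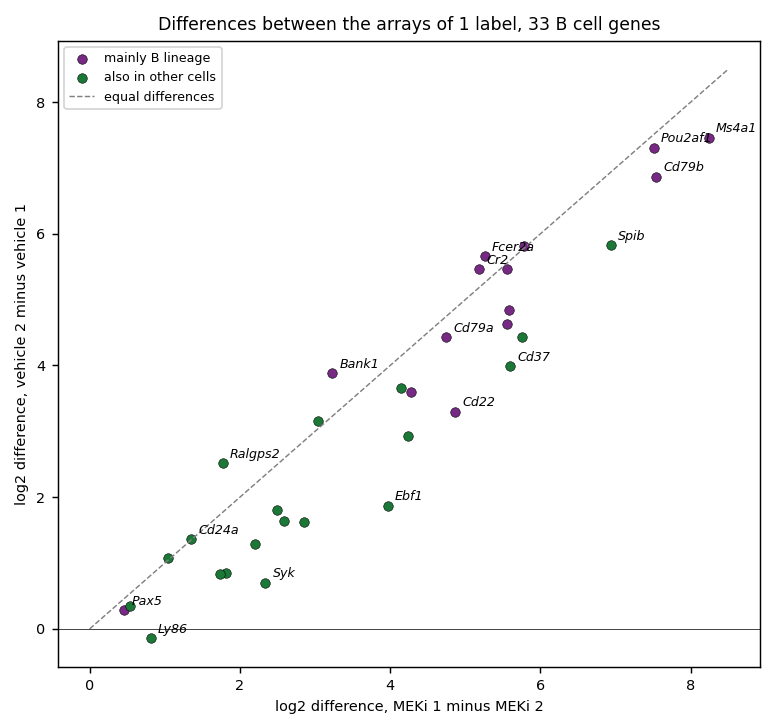
Log2 difference between the arrays labelled MEKi (MEKi 1 minus MEKi 2, horizontal axis) and between those labelled vehicle (vehicle 2 minus vehicle 1, vertical axis), 1 point per B cell gene. Purple marks genes expressed mainly in the B lineage and green those also used by other cells. The dashed line marks equal differences. Ms4a1 lies at 8.24 and 7.46, and Ly86 is the 1 gene below 0 on the vertical axis, at -0.14.

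The arrays that resembled each other across labels also differed in the B cell genes, though by much less. MEKi 1 read above vehicle 2 for 28 of 33 genes, compared to 7686 of all 17097 genes. The median difference of the 33 genes was 0.39, compared to -0.03 over all genes. The excess passed 1.5-fold for 9 genes, Vpreb3, Siglecg, Ms4a1, Cd180, Blk, Syk, Ralgps2, Bcl11a and Ikzf3, where 1.74% of all genes were higher by that much and 4.14% lower. Syk had the largest of these differences, at 1.42, followed by Cd180 at 1.09. None of the 5 genes that read lower in MEKi 1, Cr2, Fcer2a, Fcrl1, Cd24a and Plcg2, passed 1.5-fold. These include Cr2 and Fcer2a, the CD21 and CD23 receptors of follicular B cells, which were 0.16 and 0.33 higher in vehicle 2. The direction for Fcer2a depended on the probe set, since a further, dimmer one read 7.06 in MEKi 1 and 6.35 in vehicle 2. Of the 23 further probe sets of the set, 5 had the other sign in this pair, those of Cd24a, Fcer2a, Fcrl1, Fcrla and Ikzf3.

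In the other pair, MEKi 2 read above vehicle 1 for 12 of the 33 genes and below it for 21, compared to 9563 and 7533 of all 17097 genes. The median difference of the 33 genes was -0.20, compared to 0.05 over all genes. More than 1.5-fold higher were 2 genes, Bank1 (1.07) and Ralgps2 (1.61), and more than 1.5-fold lower were 8, Cd22, Cd72, Cd55, Cd37, Ly86, Pik3ap1, Dock8 and Ebf1. Over all genes, 7.69% were higher and 9.26% lower by that much. The largest deficits were Ebf1 at -1.62, Cd37 at -1.40. For genes near the floor in both arrays, such as Cd79a at 4.17 and 4.19, a difference may be understated here. In this pair 4 of the 23 further probe sets had the other sign, those of Bcl11a, Ms4a1, Pik3ap1 and Pou2f2. Of the 14 genes expressed mainly in the B lineage, 12 read below the array median in MEKi 2 and 12 in vehicle 1, compared to 1 in each of the other arrays.

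**Figure D3:**
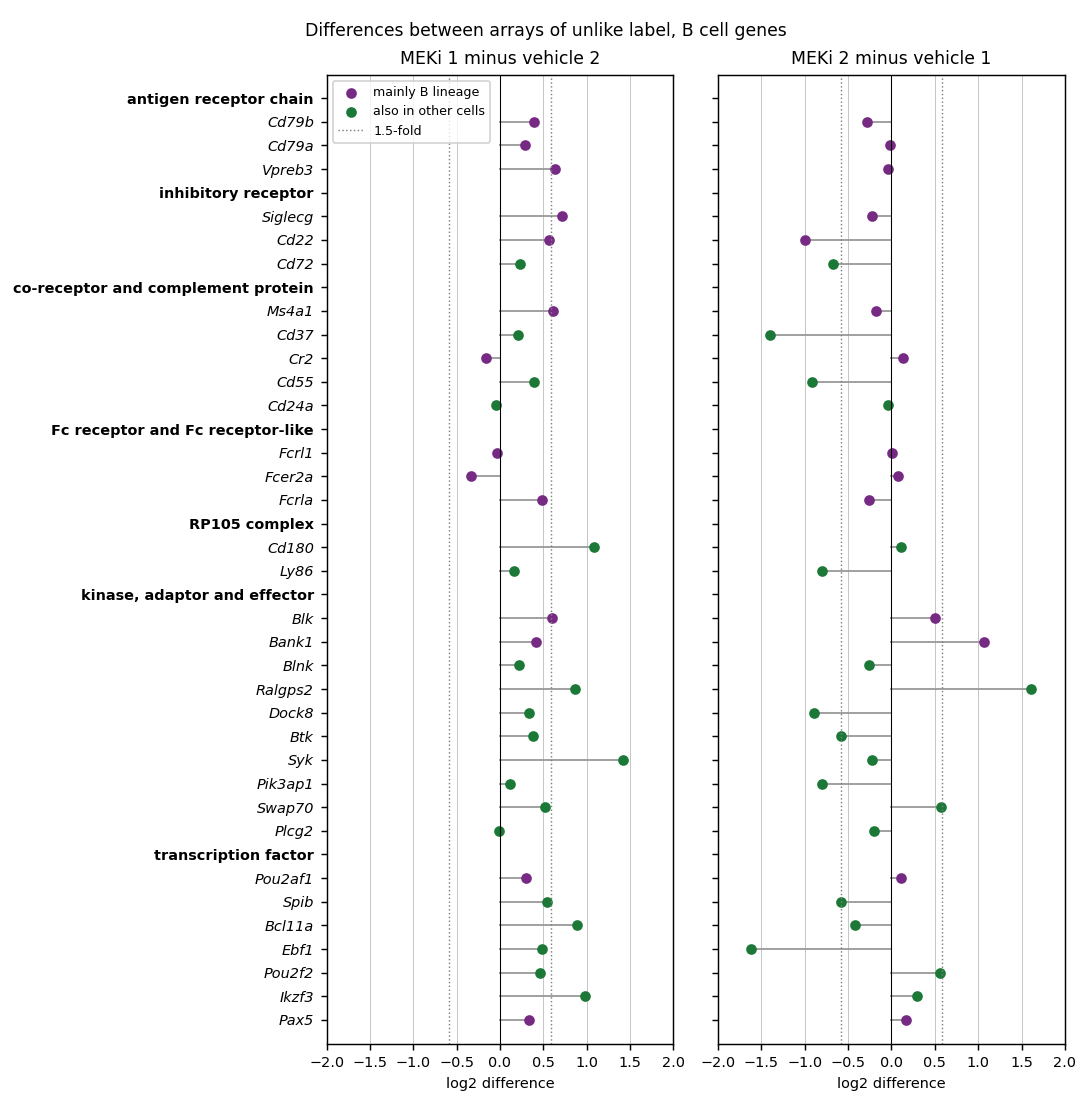
Log2 difference of MEKi 1 minus vehicle 2 (left) and MEKi 2 minus vehicle 1 (right) for 33 B cell genes, 1 array on each side and no test. Dotted lines mark 1.5-fold, and colours separate genes expressed mainly in the B lineage (purple) from those also used by other cells (green). On the left most genes lie to the right of 0, with Syk furthest at 1.42, and on the right Ebf1 lies furthest to the left at -1.62.

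Whether trametinib changed the B cell genes is the question of the design, and limma was used to test it, two-sided, with the arrays grouped as labelled and Benjamini-Hochberg adjustment over 45037 probe sets. Genes were called where p was under 0.05, the fold change exceeded 1.5 and the adjusted p was under 0.1. The test called 0 of 33 genes, and of all probe sets it called 0 (0% higher and 0% lower in MEKi). At an unadjusted p under 0.05 there were 0 of the 33 genes and 406 of the 45037 probe sets. The median log2 fold change of the 33 genes was 0.05, compared to 0.01 over all probe sets, and single genes ran from -0.59 for Cd37 to 1.24 for Ralgps2. Both MEKi arrays read above both vehicle arrays for 0 of the 33 genes and below them for 0, compared to 11% and 10.2% of all genes. With 2 arrays against 2, an exact two-sided permutation test cannot give a p below 0.333, so none was used.

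The spread within labels was far larger than the difference between them for the receptor genes. Ms4a1 averaged 8.09 ± 5.83 in MEKi and 7.88 ± 5.27 in vehicle (SD, n = 2 arrays each), a log2 fold change of 0.21 with a standard error of 4.07 (limma, adjusted p = 1). Cd79b averaged 8.59 ± 5.33 and 8.54 ± 4.86, and its log2 fold change was 0.05 with a standard error of 3.73. Cd79a had a log2 fold change of 0.14 with a standard error of 2.38, and Cd22 one of -0.22 with a standard error of 2.16. The kinase genes Btk and Syk, whose spread was narrower, had log2 fold changes of -0.10 (standard error 1.13) and 0.60 (standard error 0.91). Cd24a was at -0.05 (standard error 0.72). Pax5 was at 0.25 (standard error 0.25), from a probe set of low signal in every array, and the limma adjusted p was 1 for all 8 genes. These standard errors leave room for changes of several log2 units in either direction in the receptor genes. The median of the 33 genes turned with single arrays: it was -2.09 without MEKi 1, 2.12 without MEKi 2, -1.50 without vehicle 1 and 1.81 without vehicle 2.

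**Figure D4:**
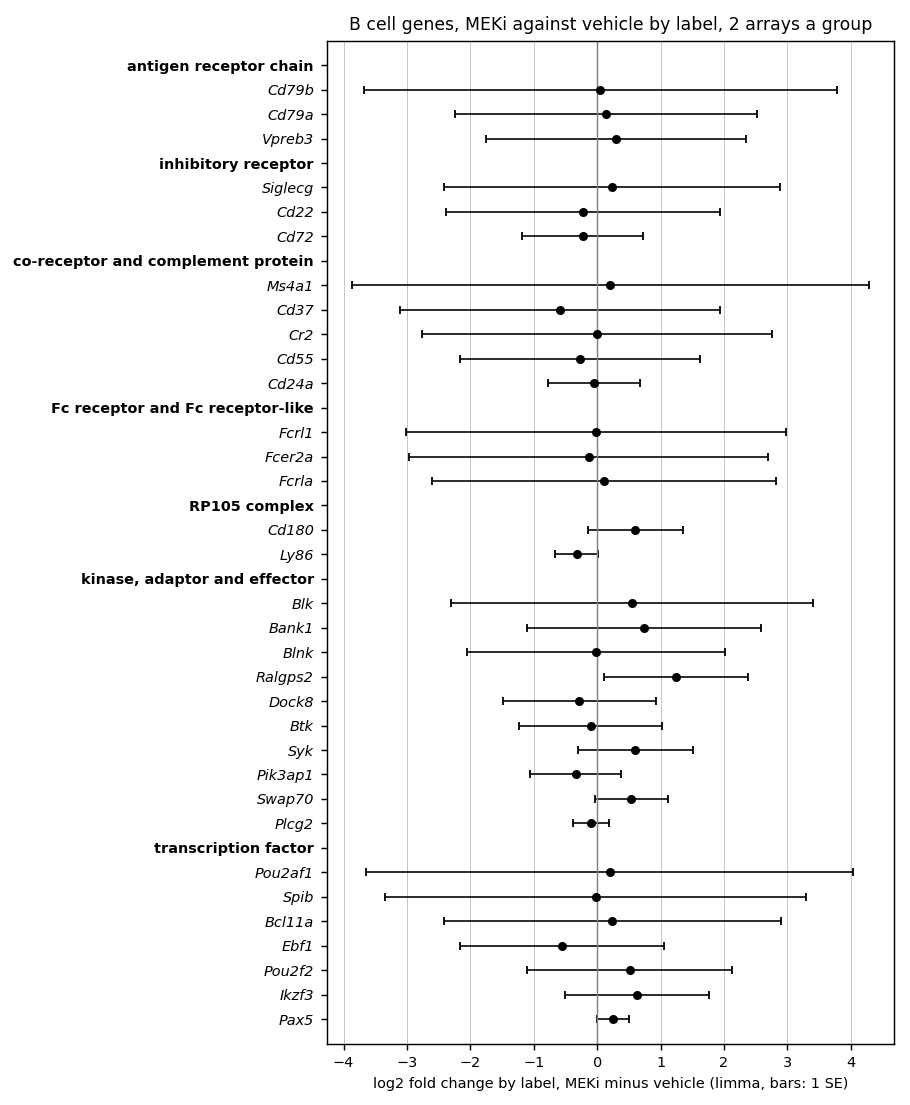
Log2 fold change of MEKi against vehicle by label (limma, horizontal axis) for 33 B cell genes, 2 arrays a group, with bars of 1 standard error. All genes lie between -0.59 and 1.24, and the bars of Ms4a1 span 4.07 on each side.

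A list of 31 other genes of B cell receptor signalling and its co-receptors, of which 26 were measured, was read in the same way. By label 0 of 26 passed the test, as did 0 of 45037 probe sets, and 0 of the 26 had an unadjusted p under 0.05. Within labels, MEKi 1 read above MEKi 2 for 22 genes, 19 of them by more than 1.5-fold. Vehicle 2 read above vehicle 1 for 22, 16 of them by more than 1.5-fold. Over all genes, 16.1% and 12.3% were higher by that much in these pairs. Lower by more than 1.5-fold were 1 of the 26 in the MEKi pair and 2 in the vehicle pair, compared to 17.9% and 12.7% of all genes. The widest ranges belonged to Tnfrsf13c, the receptor for the B cell survival factor BAFF (11.41, 4.71, 4.93 and 10.98), to Cxcr5, the chemokine receptor that guides B cells into follicles (10.02, 3.78, 3.93 and 9.16), and to the proton channel gene Hvcn1 (11.25, 6.23, 7.64 and 10.92). All 3 had the order of arrays seen for Ms4a1. The narrowest ranges belonged to Nfatc2, a calcium-regulated factor (0.29), Pik3r1, a regulatory subunit of PI3K (0.37), and the widely expressed tetraspanin gene Cd81 (0.42). Vav3, an exchange factor of the Vav family, ran the other way, at 8.37, 10.79, 9.81 and 8.52, and was chosen after its values were seen.

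Marker lists of other cell types moved with the B cell genes, and their part in the result was not tested. All 8 T cell markers were higher in MEKi 1 than in MEKi 2 and in vehicle 2 than in vehicle 1, and Cd3e, which encodes the CD3 epsilon chain, was at 10.11, 6.03, 6.72 and 9.88. Their summed level on the linear scale was 12387 and 362 in the MEKi arrays and 810 and 11969 in the vehicle arrays. Another list held 6 markers of the stroma of lymph nodes and of high endothelial venules, the vessels through which lymphocytes enter lymph nodes. All 6 were higher in MEKi 1 than in MEKi 2 and in vehicle 2 than in vehicle 1. Their sums were 12224 and 103 in MEKi and 175 and 10164 in vehicle. Glycam1, a ligand for L-selectin made by these vessels, was at 12.27, 3.50, 3.73 and 12.05, so this marker was at the floor in MEKi 2 and vehicle 1. Cxcl13, the chemokine of B cell follicles, was at 12.02, 4.38, 6.21 and 11.66. It was named after its values were seen.

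Of 5 measured plasma cell markers, all 5 were higher in MEKi 1 than in MEKi 2 and in vehicle 2 than in vehicle 1. Their summed levels were 16549 and 4067 in MEKi and 5128 and 17049 in vehicle. The sums of MEKi 2 and vehicle 1 were carried by Xbp1, at 11.91 and 12.19 there. Jchain, the joining chain of secreted immunoglobulin, was at 13.07, 5.50, 7.75 and 13.21. Of 5 germinal centre markers, 4 were higher in these pairs, and Bcl6, the factor that drives the germinal centre, was at 9.48, 8.60, 9.13 and 9.21. Vehicle 1 thus read above MEKi 2 for Jchain and Bcl6, as it did for Cd37, Cd22 and Ebf1. Of 4 dendritic cell markers, 4 were higher in MEKi 1 than in MEKi 2 and 3 in vehicle 2 than in vehicle 1, 2 of them by more than 1.5-fold in each pair. They had sums of 731 and 456 in MEKi and 598 and 792 in vehicle, and the first measured, Flt3, a receptor of their precursors, was at 7.87, 4.33, 5.11 and 8.21. Zbtb46, a factor of conventional dendritic cells, differed by 0.05 and 0.03 in these pairs.

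Macrophage markers ran the other way, and tumor epithelial markers were mixed. All 10 macrophage markers were lower in MEKi 1 than in MEKi 2 and in vehicle 2 than in vehicle 1, with sums of 10542 and 19743 in MEKi and 33626 and 17165 in vehicle. Cd68, a lysosomal protein of macrophages, was at 9.76, 10.38, 11.07 and 10.07. Of 7 tumor epithelial markers, 4 were higher in MEKi 1 than in MEKi 2, all 4 by more than 1.5-fold (Krt19, Epcam, Cdh1 and Cldn4), and 5 were higher in vehicle 2 than in vehicle 1, 0 of them by that much. Krt8 and Krt18, the brightest, were lower by more than 1.5-fold in both pairs. Carried by these keratins, the list summed to 4318 and 8462 in MEKi and 16304 and 8736 in vehicle. Neutrophil markers summed to 2436 and 6186 in MEKi and 396 and 579 in vehicle, and S100a8, a calcium-binding protein of neutrophils, was at 9.99, 11.10, 6.17 and 7.70. Both MEKi arrays read above both vehicle arrays for 3 of the 4 neutrophil markers measured, although 0 of the 4 were called. The same held for 0 of the 33 B cell genes and 11% of all genes. Both MEKi arrays read below both vehicle arrays for 2 of the 10 macrophage and 3 of the 7 tumor epithelial markers, compared to 10.2% of all genes.

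Trametinib acts on the kinases upstream of ERK, and 10 ERK target genes were read as a check of dosing. Dusp6, a phosphatase induced by ERK, was at 9.59, 12.30, 12.02 and 10.96. The 10 genes had medians of 7.21, 9.70, 9.29 and 8.36, so the arrays with high B cell genes had the lower ERK target medians, under both labels. All 10 were lower in MEKi 1 than in MEKi 2, and 9 of 10 were lower in vehicle 2 than in vehicle 1. By label their median log2 fold change was -0.19. Both MEKi arrays read below both vehicle arrays for 0 of the 10, compared to 10.2% of all genes. Lower in MEKi 1 than in vehicle 2 were 8 of 10, but 8 of 10 were higher in MEKi 2 than in vehicle 1. The check thus did not separate the arrays by label. The part of ERK output in the B cell readings was not tested.

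**Figure D5:**
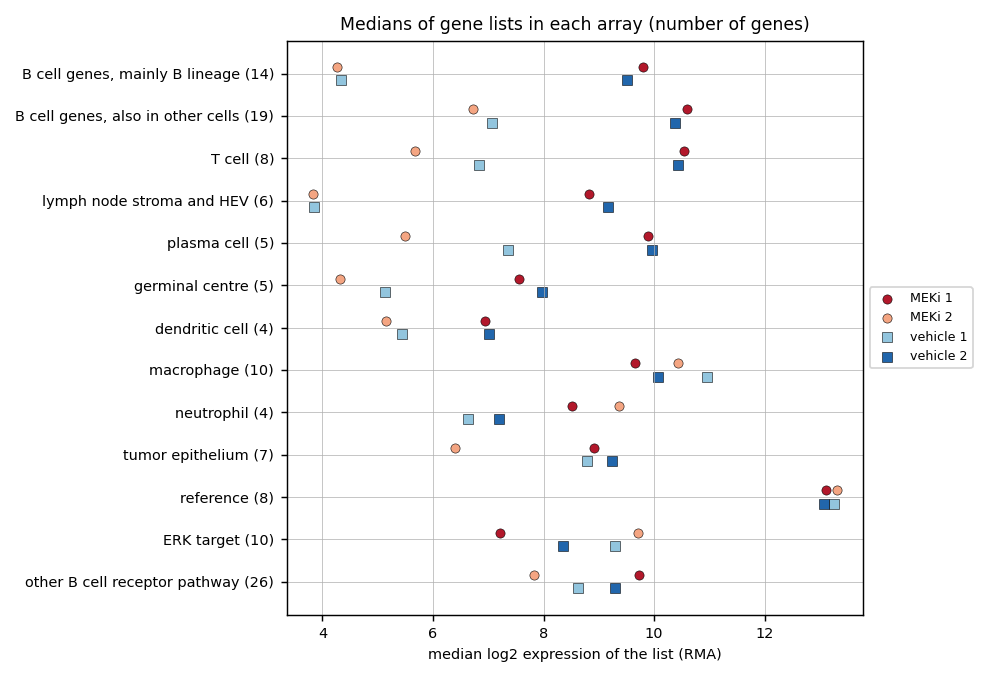
Medians of 13 lists of genes, 1 point per array, as log2 expression after RMA on the horizontal axis. Counts of measured genes stand in parentheses. Circles mark MEKi arrays and squares vehicle arrays, as labelled. The genes expressed mainly in the B lineage sit at 9.80 in MEKi 1 and 9.50 in vehicle 2 and at 4.27 and 4.33 in the other arrays, and the reference genes stay near 13.11.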

How the data were processed

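The values deposited by the authors are log2 expression levels of MG-430PM arrays after RMA (background correction and quantile normalization, AFFY package in R), and they were used as given. No version of RMA or AFFY is stated in the labels or the methods. After removal of 104 controls, 45037 of 45141 probe sets were tested. The platform annotation gives a single symbol for 28898 of these and several for 551, which were left unnamed together with 15588 others. By Entrez identifier, 28689 probe sets were found in the mouse gene table (GRCm38.p6), where 0 symbols differed.

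The 4 arrays were grouped by their labels, and MEKi was compared with vehicle with limma 3.58.1 (lmFit and eBayes) in R 4.3.3. The fit was tested on simulated data whose spread within groups was narrower than that of most of the B cell genes. That test therefore does not cover a spread as wide as theirs. Differences between single arrays carry no test. Measured members are described by their values in the arrays. Statistics by label were printed for Ms4a1, Cd79a, Cd79b, Pax5, Cd22, Btk, Syk and Cd24a, and by rule the 3 widest and 3 narrowest ranges of the other pathway list and the first measured gene of each marker list were named. The members, the lists and the genes named were chosen with earlier results of these data known. The fit was repeated with a stricter adjusted p of 0.05, a trend on intensity, unmoderated variances, the dimmest 25% left out, centring on reference genes, a replicate block, single arrays left out, and a gene's probe sets averaged. Promoter windows are from RefSeq, and no window was at hand for Cd79b, Ms4a1, Cd24a, Blk and Ikzf3. The labels and methods do not say that same-numbered arrays are pairs. Tables and figures were made in Python 3.11.15 (numpy 2.4.6, pandas 2.3.3, matplotlib 3.10.9).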

Additional observations from a re-analysis of the deposited data

How the results depend on the processing

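By label the counts of called probe sets, of called B cell genes and of called pathway genes were 0 under every alternative run. Probe sets at an unadjusted p under 0.05 numbered 406, and 683 with an intensity trend, 1189 with no moderation, 243 without the dimmest 25%, 339 when centred on reference genes and 80 to 2027 with 1 array left out. The median log2 fold change of the 33 B cell genes was 0.05, and 0.01 when centred. With 1 array left out it lay between -2.09 and 2.12, and single genes turned in direction as well, between -3.91 and 4.34 for Ms4a1, -2.23 and 2.51 for Cd79a, -3.72 and 3.82 for Cd79b, -2.65 and 2.21 for Cd22, -1.40 and 1.20 for Btk, -0.58 and 1.77 for Syk and -0.73 and 0.64 for Cd24a. Pax5 did not turn and lay between 0.02 and 0.48 in these runs. With the replicate block, 0 probe sets and 0 of 33 B cell genes were called and 267 probe sets had an unadjusted p under 0.05. Deviations of same-numbered arrays correlated at -0.764 across probe sets. A crossed pairing, chosen after the data were seen, gave 0 calls, with 1447 probe sets and 5 of 33 B cell genes at an unadjusted p under 0.05. Floor readings limit differences among the receptor genes in MEKi 2 and vehicle 1. With 1 array left out, the lone array was assumed to vary like the other label.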
